A study of Rattus norvegicus with 6 samples.

Results

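The transcripts described are 9 complement components, C1qa, C1qb, C1qc, C1r, C1s, C2, C3, Cfd and Serping1, taken by symbol from the 17487 gene symbols of the deposited count table. All 9 were present, each on 1 row. They were measured in heart tissue of adult male Wistar rats, an outbred strain. The doxorubicin group, 3 rats, had been given doxorubicin hydrochloride, an anthracycline cancer drug that damages the heart, by tail vein at 3.75 mg/kg once a week over 4 weeks. The control group, 3 rats, had been injected with 0.9% sodium chloride on the same schedule. Each library came from 1 rat, and the part of the heart, the age of the rats and the interval after the last injection are not given in the sources used here. The heart muscle marker Tnnt2, cardiac troponin T, had 40202 to 62602 counts per library.

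Complement is a plasma and tissue defence system of proteins that recognise surfaces, cut one another in sequence and mark targets for removal. In its classical pathway the recognition molecule C1q, built from A, B and C chains, carries the proteases C1r and C1s, and activated C1s cuts C4 and C2 to form an enzyme that cleaves C3. The alternative pathway reaches C3 through factor D, which cuts factor B. C1 inhibitor, the product of Serping1, blocks C1r and C1s. In tissues C1q is made mainly by macrophages, C1r, C1s and C1 inhibitor are made largely by fibroblasts and other stromal cells, plasma C3 comes mostly from the liver, and factor D, also named adipsin, is abundant in fat.

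Libraries held 2219685 to 3508282 counts, and 3 counts, taken as the smallest detectable level, came to 0.849 to 1.33 CPM, counts scaled to a common library total with trimmed mean of M-values (TMM) factors. Control library 1 stood apart on the first principal component, which took 38.4% of the variance, at -43.26 against -4.83 to 26.55 in the other libraries. Its hemoglobin and red cell transcripts summed to 7340 CPM, against 692 to 2710 CPM in the others.

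Of the 9 transcripts, 8 were tested in edgeR's quasi-likelihood fit and C3 fell below the low-count filter. Each of the 8 had at least 18 counts in every library, so none passed the filter through 1 group alone. At a Benjamini-Hochberg adjusted p under 0.05, 0 of the 8 passed in edgeR, where 0.0543% of the 9205 tested symbols did. The count was also 0 in DESeq2, in limma voom and in voom with sample quality weights. At an unadjusted p under 0.05, C1s, C1r and Serping1 passed, 3 of 8 and all higher in doxorubicin hearts, against 8.10% of all tested symbols in either direction and 4.00% higher. The unadjusted count was 4 in DESeq2, which also tested C3, 2 in voom and 6 in voom with quality weights. All 8 log2 fold changes were above 0, from 0.34 to 0.79 with a median of 0.41, where 52.1% of all tested symbols were above 0 and their median was 0.02. The doxorubicin values lay wholly above the control values for C1s and Serping1 among the 8 tested, against 6.39% of tested symbols.

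**Figure D1:**
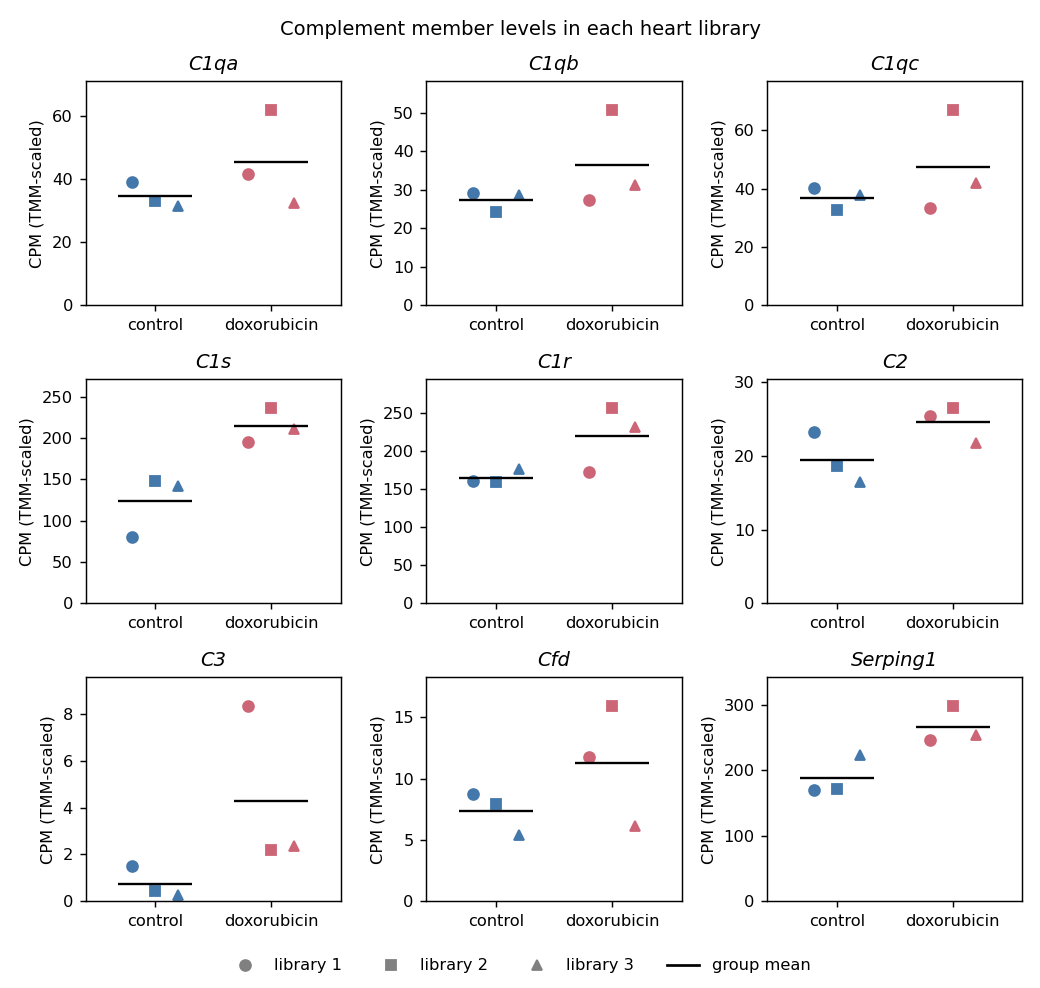
Level of each complement transcript in each library, in TMM-scaled CPM on a linear axis from 0, with control libraries in blue, doxorubicin libraries in red and the group mean as a black line. C1s, Serping1 and C3 have all doxorubicin points above all control points, and doxorubicin library 2 holds the highest point for every transcript but C3.

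The largest difference among the tested transcripts was that of C1s, the protease of the C1 complex that cuts C4 and C2. C1s stood at 80.7, 148 and 142 CPM in control libraries 1, 2 and 3 and at 195, 236 and 211 CPM in doxorubicin libraries 1, 2 and 3. The groups did not overlap, and control library 1 was well below the other controls. Control hearts averaged 124 ± 37.4 CPM, and doxorubicin hearts averaged 214 ± 20.9 CPM (SD, n = 3). The log2 fold change was 0.79 (SE 0.22), with an unadjusted p of 0.00331 and an adjusted p of 0.261 in edgeR's quasi-likelihood test. Without control library 1 the log2 fold change was 0.57, with an unadjusted p of 0.00452 in edgeR.

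C1r, the protease that activates C1s, stood at 160, 159 and 176 CPM in control libraries 1, 2 and 3. The doxorubicin values were 172, 256 and 231 CPM in the same order. Its span overlaps that of LOC102553847 in the RefSeq gene list. Doxorubicin library 1 fell within the control range, so the groups overlapped. The log2 fold change was 0.41 (SE 0.19), with an unadjusted p of 0.0470 and an adjusted p of 0.605 in edgeR. Without doxorubicin library 2 the log2 fold change was 0.30, with an unadjusted p of 0.188.

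The balance between C1r and C1s was not the same in every library. C1s took 33.5% of the C1r and C1s counts in control library 1 (Wilson 95% interval 30.0 to 37.3), 48.3% (44.6 to 52.0) in control library 2 and 44.7% (41.9 to 47.7) in control library 3. In doxorubicin libraries 1, 2 and 3 the share was 53.1% (50.2 to 56.0), 48.0% (45.6 to 50.5) and 47.7% (45.2 to 50.2). Control library 1 was low, and doxorubicin libraries 2 and 3 lay below control library 2, so the groups overlapped. The intervals cover counting error only and leave out the spread between rats. Reads without molecular identifiers may repeat the same molecule, which would make the intervals too narrow.

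Serping1, which encodes the inhibitor of C1r and C1s, was at 170, 172 and 223 CPM in control libraries 1, 2 and 3. It was at 246, 298 and 254 CPM in doxorubicin libraries 1, 2 and 3. Every doxorubicin library was above every control library. Control hearts averaged 189 ± 30.1 CPM and doxorubicin hearts 266 ± 27.7 CPM (SD, n = 3). On the log2 scale the difference was 0.49 (SE 0.19). The unadjusted p was 0.0184 and the adjusted p 0.481 in edgeR. It was 0.0770 unadjusted without doxorubicin library 2 and 0.0596 without control library 2. Set against the proteases it inhibits, Serping1 had 65.7 ± 8.36 counts per 100 counts of C1r and C1s in control and 61.7 ± 5.01 in doxorubicin libraries, and the groups overlapped.

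The C1q chains, the recognition part of the complex, were high in a single doxorubicin heart. C1qa stood at 39.2, 33.2 and 31.4 CPM in control libraries 1, 2 and 3 and at 41.6, 61.9 and 32.6 CPM in doxorubicin libraries 1, 2 and 3. C1qb stood at 29.3, 24.4 and 28.6 CPM in control and at 27.5, 50.7 and 31.4 CPM in doxorubicin libraries. C1qc stood at 40.3, 32.8 and 37.9 CPM in control and at 33.3, 66.9 and 42.0 CPM in doxorubicin libraries. For all 3 chains doxorubicin library 2 was the highest of the 6, while doxorubicin library 1 or 3 lay within the control range.

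The log2 fold changes were 0.39 (SE 0.25) for C1qa, 0.41 (SE 0.26) for C1qb and 0.35 (SE 0.25) for C1qc. Their adjusted p-values in edgeR were 0.727, 0.720 and 0.756. Without doxorubicin library 2 the log2 fold changes were 0.11, 0.11 and 0.03. Summed over the chains, C1q averaged 99.0 ± 9.31 CPM for control hearts against 129 ± 43.5 CPM after doxorubicin (SD, n = 3), with 179 CPM in doxorubicin library 2 and 102 and 106 CPM in libraries 1 and 3.

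Among the chains the share of C1qb varied least. C1qb took 26.9% to 29.6% of the C1q counts over the 6 libraries, and the share in doxorubicin library 2 was 28.2% (Wilson 95% interval 24.7 to 32.1). C1qa ranged from 30.7% in doxorubicin library 3 to 40.6% in doxorubicin library 1. Their intervals of 26.2 to 35.7 and 35.4 to 46.1 barely overlapped. C1qc ranged from 32.5% in doxorubicin library 1 to 39.6% in doxorubicin library 3. In the RefSeq gene list of the assembly GRCr8, C1qb, C1qc and C1qa are consecutive coding genes on chromosome 5, and C1r and C1s are neighbours on chromosome 4. The authors' build was mRatBN7.2, so that list was used for names and order only.

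**Figure D2:**
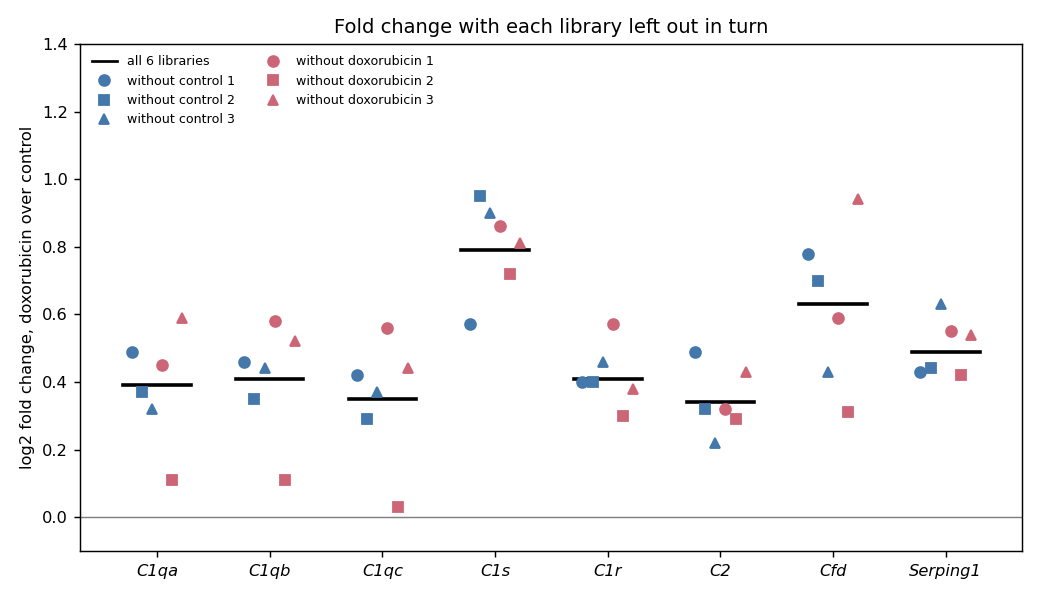
Log2 fold change of the 8 tested transcripts, doxorubicin over control, with all 6 libraries (black line) and with each library left out (points, coloured by group and shaped by library number). The C1q chains come close to 0 without doxorubicin library 2, at 0.11, 0.11 and 0.03, and C1s drops to 0.57 without control library 1.

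C2, which supplies the protease part of the classical enzyme that cleaves C3, was at 23.2, 18.6 and 16.4 CPM in control libraries 1, 2 and 3. It was at 25.3, 26.4 and 21.7 CPM in doxorubicin libraries. Doxorubicin library 3 lay below control library 1, and the other values did not cross. The log2 fold change was 0.34 (SE 0.25), with an adjusted p of 0.762 in edgeR. The span of C2 overlaps that of Zbtb12 in the RefSeq list, and whether reads were counted by strand is not given in the sources used here.

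Cfd, the factor D gene of the alternative pathway, was at 8.75, 7.97 and 5.38 CPM in control and at 11.8, 15.9 and 6.17 CPM in doxorubicin libraries 1, 2 and 3, on 18 to 51 counts per library. Doxorubicin library 3 lay within the control range. The log2 fold change was 0.63 (SE 0.40), with an adjusted p of 0.727 in edgeR, and it was 0.31 without doxorubicin library 2 and 0.94 without doxorubicin library 3. Fat cell markers summed to 1730 to 2130 CPM in control and 1520 to 1620 CPM in doxorubicin libraries. Without Fabp4, the most abundant, the sums overlapped, at 914 to 1050 and 770 to 965 CPM. Of the 18 markers measured, 7 were tested, with 3 lower (Cidea, Fabp4 and Aqp7) and 0 higher at an unadjusted p under 0.05, against 8.10% of all tested symbols in either direction, and 3 (Pnpla2, Fasn and Acaca) had log2 fold changes above 0. Cidea, Fabp4 and Aqp7 are also expressed by other cells of the heart. Their part in the Cfd level was not tested. Among defining fat cell genes, Adipoq had 0 to 7 counts, Plin1 0 to 1 and Lep 0 to 2, and Retn was at 0.

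C3, the component on which all pathways converge, had the fewest counts. Control libraries 1, 2 and 3 held 4, 1 and 1 of them, while doxorubicin libraries 1, 2 and 3 held 26, 7 and 8. Control libraries 2 and 3 were under the floor of 3 counts, and every doxorubicin library was above every control library. Pooled over libraries, 41 against 6 counts gave a ratio of 5.90 after scaling for library size, with an exact 95% counting interval of 2.49 to 17.0 that leaves out the spread between rats. Doxorubicin library 1 held most of the doxorubicin counts, and without it the ratio was 3.18 (1.17 to 10).

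Fitted without a low-count filter, C3 had a log2 fold change of 2.49 (SE 0.77) in edgeR, a value that depends on the prior count. The unadjusted p was 0.00206. In that fit 7.49% of 13050 symbols had an unadjusted p under 0.05. The adjusted p of C3 was 0.180, from 0.0256 to 0.845 over 9 alternatives. The adjusted p of 0.0256 was that without doxorubicin library 2, where the log2 fold change was 2.81. Without doxorubicin library 1 the log2 fold change was 1.60, at an unadjusted p of 0.0993 and an adjusted p of 0.845. Among liver transcripts, Alb had 0 to 7 counts, Fgb 0 to 1 and Fga 0, while Ttr had 84 to 132 and Tf 69 to 220.

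Outside these components the classical pathway's C4 genes had the largest differences, and they are the substrate of C1s. C4a was at 21.7, 11.5 and 15.6 CPM in control and at 47.4, 60.0 and 31.1 CPM in doxorubicin libraries 1, 2 and 3. Its log2 fold change was 1.50 (SE 0.29), with an adjusted p of 0.0944 in edgeR. C4b was at 9.14, 10.6 and 11.3 CPM in control and at 18.9, 40.1 and 26.1 CPM in doxorubicin libraries. The log2 difference for C4b was 1.45 (SE 0.31), at an adjusted p of 0.125 in edgeR. The groups did not overlap for either gene. C4a and C4b are close copies, and how reads that match both were counted is not given in the sources used here. Their sum does not depend on how shared reads were divided between them, but it would miss shared reads that were left uncounted. The sum averaged 26.6 ± 4.35 CPM for control hearts against 74.6 ± 22.6 CPM after doxorubicin (SD, n = 3).

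The promoters of C3, C4a, C4b and C1r are shown as the components and substrate with the clearest differences for which the RefSeq promoter table (GRCr8) holds an entry. Each is the 150 bases before the annotated start, 5′ to 3′ on the gene's strand, with capitals marking matches to any of 6 motifs searched on both strands. C3 lies at chr9:2201340-2201489 (minus strand), C4a at chr20:4010207-4010356 (plus), C4b at chr20:4201829-4201978 (plus) and C1r at chr4:159098863-159099012 (plus).
C3: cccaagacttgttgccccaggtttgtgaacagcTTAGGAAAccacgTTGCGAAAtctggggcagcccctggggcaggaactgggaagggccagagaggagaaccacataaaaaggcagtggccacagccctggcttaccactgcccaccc
C4a: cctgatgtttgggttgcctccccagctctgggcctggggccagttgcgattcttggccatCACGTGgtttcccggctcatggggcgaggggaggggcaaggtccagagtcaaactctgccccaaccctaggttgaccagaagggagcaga
C4b: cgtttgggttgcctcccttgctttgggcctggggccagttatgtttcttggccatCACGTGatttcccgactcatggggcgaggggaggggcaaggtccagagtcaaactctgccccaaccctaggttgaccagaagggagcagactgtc
C1r: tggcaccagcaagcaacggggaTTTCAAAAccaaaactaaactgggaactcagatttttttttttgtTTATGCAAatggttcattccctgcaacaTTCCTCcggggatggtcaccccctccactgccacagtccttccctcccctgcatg

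In C3 both matches are to the C/EBP site TTNNGNAA, at 117 to 110 and 104 to 97 bases before the start, and the second matches on both strands. That motif is found in 36.8% of 27457 promoters over the 250 bases searched. In C4a and C4b the match is the E-box CACGTG, which 5.79% of promoters hold. C4b also holds the PU.1 core GAGGAA at 229 to 224 bases before the start, upstream of the bases printed. C1r holds 2 matches to the C/EBP site and 1 to the PU.1 core GAGGAA, here as its reverse complement, a motif in 23.2% of promoters. The TATA box TATAAA (13.1% of promoters), the interferon gamma activated site TTCNNNGAA (7.52%) and the interferon response core GAAANNGAA (7.99%) had no match in these 4 windows. The C4a and C4b windows of 300 bases were identical at 93.6% of 295 aligned positions.

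Beyond the 9 components, 56 other genes of the pathway were listed by role, of which 50 were in the table and 22 were tested. At an adjusted p under 0.05, 0 of the 22 passed in edgeR and in voom, 1 (C4a) passed in voom with quality weights, and 2 (C4a and C4b) passed in DESeq2 and in edgeR without a filter. At an unadjusted p under 0.05 there were 5, of which C4a, C4b, Itgb2 and Cd59 were higher and Cd93 was lower, against 8.10% of all tested symbols in either direction and 4.00% higher. The median log2 fold change of the 22 was 0.22. A further 28 were in the table but not tested, with at most 9 counts in any library, and 10 of these were at 0 in all libraries. Among the untested components that act after C3, C6 had at most 6 counts, C5 at most 2, C8a and C9 at most 1 and C8b 0.

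Of the regulators that protect host cells, 6 were tested. Cd59, which blocks assembly of the membrane attack complex, was at 80.3, 121 and 104 CPM in control and at 140, 124 and 208 CPM in doxorubicin libraries 1, 2 and 3. The groups did not overlap, with a log2 fold change of 0.63 (SE 0.23), an unadjusted p of 0.0146 and an adjusted p of 0.451 in edgeR. Without doxorubicin library 3 its log2 fold change was 0.38. Cd55, which speeds decay of the C3 enzymes, differed by 1.00 (SE 0.56) on the log2 scale, with 13.2 CPM in doxorubicin library 3 against 1.52 to 4.81 CPM in the other libraries. Without doxorubicin library 3 that difference was 0.24. Clu (0.28), Thbd (0.15) and Vtn (-0.33) had smaller log2 fold changes and overlapping groups.

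Among receptors, Itgb2, the shared beta chain of the leukocyte integrins that include complement receptors, was at 3.43, 4.43 and 5.10 CPM in control. It was at 10.9, 12.8 and 11.2 CPM in doxorubicin libraries, well clear of the controls. The log2 fold change was 1.41 (SE 0.36), with an adjusted p of 0.188 in edgeR. Its partner chain Itgam had a log2 fold change of 0.00 (SE 0.45). C5ar1, the receptor for the C5a fragment, differed by 0.83 (SE 0.46) on the log2 scale, from 7 to 30 counts in each library. Cd93, an endothelial surface protein once described as a C1q receptor, had a log2 fold change of -0.50 (SE 0.21) at an adjusted p of 0.548, and -0.33 without control library 3. The broadly expressed C1q-binding proteins Calr, C1qbp and Lrp1 were at -0.15, -0.39 and 0.16 on the log2 scale, with overlapping groups.

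Among the other pathway proteases, Cfb, factor B, had a log2 fold change of 0.58 (SE 0.34). It was highest in doxorubicin library 2, at 37.3 CPM against 12.5 to 17.7 CPM in the other libraries, the same library in which the C1q chains were high, and without that library its log2 fold change was 0.08. The lectin pathway protease Masp1 had a log2 fold change of 0.04 (SE 0.20), Masp2 0.45 (SE 0.51) and the C1r-related C1rl 0.96 (SE 0.68). Without control library 1 Masp2 was at 0.04 and C1rl at 0.50, and without control library 3 C1rl was at 2.06. Of the recognition genes, Fcna was at -0.46 (SE 0.44) and Colec12 at -0.02 (SE 0.26) on the same scale. C8g, the only terminal component tested, had -0.48 (SE 0.55), and -0.03 without doxorubicin library 3.

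**Figure D3:**
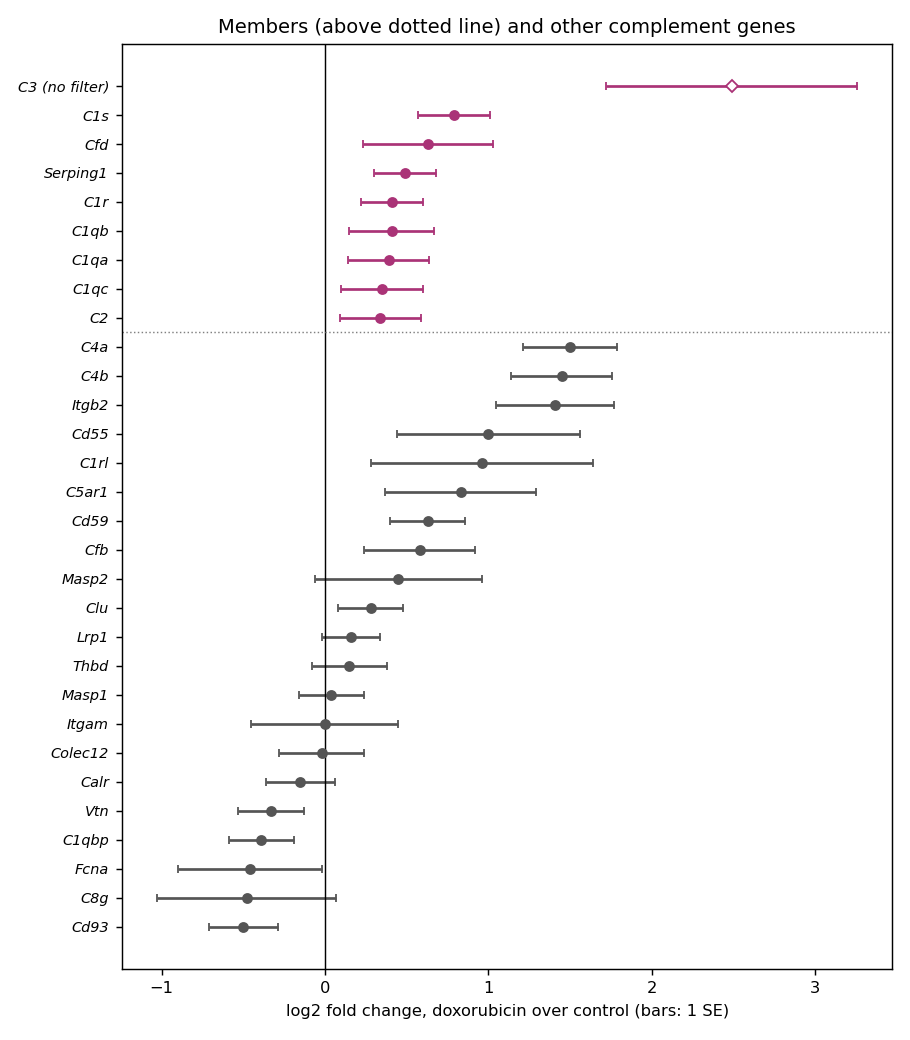
Log2 fold change, doxorubicin over control, with bars of 1 SE, for the complement components (purple, above the dotted line) and the other tested complement genes reported here (grey). C3, the open diamond, comes from the fit without a low-count filter; C4a, C4b and Itgb2 lie between 1.41 and 1.50, and none of the genes drawn from the filtered fit passed the adjusted threshold.

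Because the tissue was measured whole, a change in the number of cells of a type and a change in RNA per cell cannot be told apart. The macrophage list, 23 markers in the table, had 16 tested, with 4 higher (Cd163, Mrc1, Lyve1 and Lyz2) and 0 lower at an unadjusted p under 0.05, against 4.00% of all tested symbols higher, and 0 at the adjusted threshold. Its summed level was 1210 to 1550 CPM in control and 915 to 1680 CPM in doxorubicin libraries. Cd74 made up most of that sum. Without Cd74 the sum was 277 to 309 CPM in control and 337, 551 and 377 CPM in doxorubicin libraries 1, 2 and 3. Of that sum Lyz2, the most abundant marker left, made up 116, 87.2 and 88.0 CPM in control. In doxorubicin libraries it made up 125, 225 and 164 CPM. With Lyz2 also left out, doxorubicin libraries 1 and 3 fell below control library 2, so the groups overlapped. Doxorubicin library 2 was thus the highest library for the markers as it was for C1q. Per 100 counts of the markers other than Cd74, Lyz2 included, the C1q chains had 33.9 ± 4.14 counts in the controls. After doxorubicin they had 30.4 ± 2.24 (SD, n = 3), with 32.6 in doxorubicin library 2. The part of macrophage number in the C1q levels was not tested. Ptprc, a general leukocyte marker on 5 rows of the table, was listed at 0. Some other symbols on several rows were also low. Cebpb and Cidec, on 3 rows each, were at 0, and the heart muscle marker Atp2a2, on 3 rows, had 13 to 61 counts. Ryr2, on 2 rows, was not low, at 564 to 2763 counts. Whether the 0 of Ptprc comes from how such symbols were counted was not tested.

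Fibroblast markers were set beside C1r, C1s and Serping1 in the same way. Of the 16 markers 15 were tested, with 1 higher (Postn) and 0 lower at an unadjusted p under 0.05. The share of all tested symbols was 8.10% in either direction and 4.00% higher. Without Gsn, the most abundant, the fibroblast markers summed to 3920 to 4360 CPM in control. In doxorubicin libraries 1, 2 and 3 they summed to 3610, 5320 and 3390 CPM. C1r and C1s together were 241, 307 and 318 CPM in control and 367, 492 and 442 CPM in doxorubicin libraries, with no overlap. C1r, C1s and Serping1 came to 11.7 ± 1.10 counts per 100 counts of those fibroblast markers in control and 17.5 ± 2.89 in doxorubicin libraries. Every doxorubicin library was above every control library. That ratio depends on the markers chosen. Col3a1 was at 557 and 442 CPM in doxorubicin libraries 1 and 3, against 887 to 1040 CPM in control. Dcn was at 827 and 1030 CPM in the same 2 libraries, against 520 to 899 CPM. The part of fibroblast number in the C1r, C1s and Serping1 levels was not tested.

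**Figure D4:**
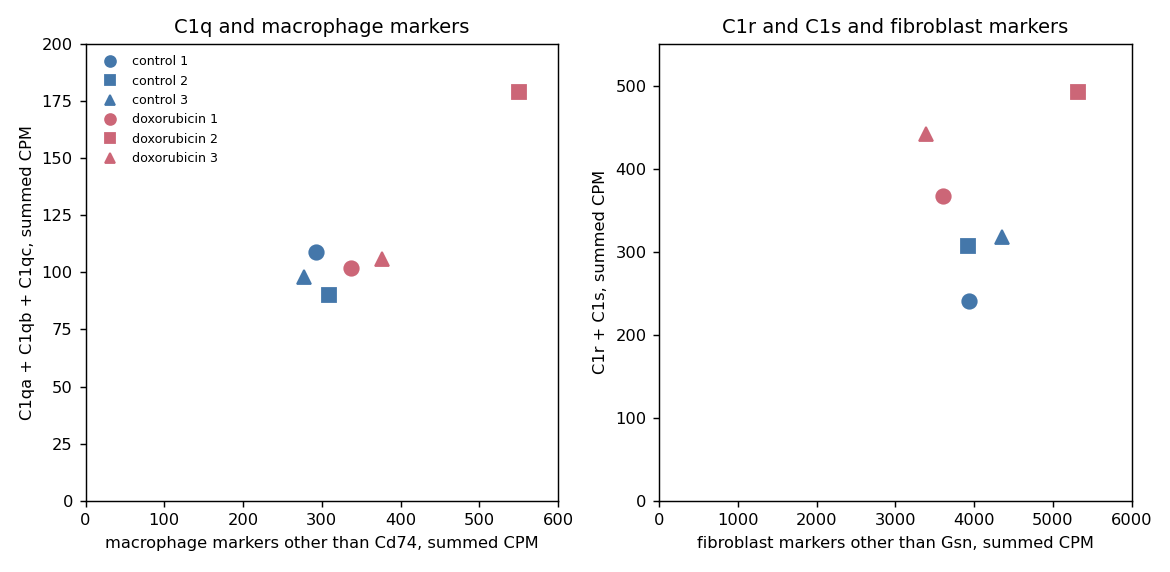
Summed CPM per library of the C1q chains against macrophage markers other than Cd74 (left) and of C1r and C1s against fibroblast markers other than Gsn (right), with control libraries in blue and doxorubicin libraries in red, on linear axes from 0. Doxorubicin library 2 is highest on both axes of each panel, and doxorubicin libraries 1 and 3 lie above all controls for C1r and C1s at fibroblast sums of 3610 and 3390 CPM.

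The other marker lists moved less clearly with these transcripts. Neutrophil markers summed to 1.77 to 5.71 CPM in control and to 5.44, 19.0 and 30.3 CPM in doxorubicin libraries 1, 2 and 3, and none of the 11 passed the filter. Endothelial markers summed to 1840 to 2060 CPM in control and 1530 to 2040 CPM in doxorubicin libraries. At an unadjusted p under 0.05, 2 of 12 were lower (Tie1 and Cldn5) and 0 higher. The share of all tested symbols in either direction was 8.10%. The sums overlapped for smooth muscle and pericyte markers (560 to 733 against 489 to 681 CPM), mesothelial and epicardial markers (49.6 to 67.1 against 47.6 to 54.1 CPM), lymphocyte markers (28.3 to 31.9 against 24.7 to 31.4 CPM) and liver markers (67.8 to 92.6 against 77.8 to 109 CPM). Heart muscle markers had 1 higher and 4 lower of 12 at an unadjusted p under 0.05, against 8.10% of all tested symbols in either direction, and 1 (Ryr2) passed the adjusted threshold. Red cell markers had 0 of 6 past an unadjusted p of 0.05.

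Among 21 cytokines, receptors and transcription factors known to act on complement genes, 16 were tested. At an unadjusted p under 0.05, 1 was higher, Il1b, an inflammatory cytokine, and 0 were lower. Of all tested symbols, 8.10% passed that level in either direction and 4.00% were higher. Il1b was at 1.52, 1.33 and 2.26 CPM in control and at 3.20, 6.53 and 3.53 CPM in doxorubicin libraries. Its adjusted p was 0.527 in edgeR. It rests on low counts, 3 to 8 in control and 10 to 21 in doxorubicin libraries. Irf7, an interferon-induced factor, was at 193 CPM in doxorubicin library 2, where the C1q chains and Cfb were highest, against 49.0 to 109 CPM in the other 5 libraries. Il6 was at 0 in every library.

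Genes with the most similar course over the 6 libraries were found by the root mean square difference of centred log2 CPM, among 8595 symbols with a mean of at least 5 CPM. Nearest to the C1q mean was Lsp1, a leukocyte actin-binding protein, at a difference of 0.0784, with 56.0 CPM in doxorubicin library 2 against 25.2 to 32.9 CPM in the others. Fgfbp3, Commd6, RT1-CE16 and Calhm2 followed. Nearest to the mean of C1r, C1s and Serping1 was Meis2, a homeobox transcription factor, at 0.0551, followed by Mettl11b, Slc66a3, Ccdc115 and Phyhd1. Meis2 was at 39.6 to 48.4 CPM in control and 57.0 to 71.5 CPM in doxorubicin libraries.

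C3 had other neighbours. The nearest was Reg3b, a secreted lectin, at 0.212, with 6.47, 1.77 and 1.70 CPM in control and 28.2, 8.40 and 7.64 CPM in doxorubicin libraries 1, 2 and 3. Mdk, a heparin-binding growth factor, came next at 0.342, then Myh7, the beta myosin heavy chain gene, at 0.375, and then Tnfrsf12a and Mybpc2. For Reg3b, Mdk, Myh7, Tnfrsf12a and Mybpc2, as for C3, doxorubicin library 1 was the highest library, and control library 1 was the highest control. For Cfd the nearest were Tspan5 at 0.150 and Exosc3 at 0.151, followed by Snai1, RGD1359634 and Cd300le. Such rankings over 6 libraries are descriptions, and the C3 pattern rests on 1 to 26 counts per library.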

How the data were processed

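The deposited table holds raw, unnormalized counts for each gene in 6 rat heart libraries, 3 per group. HTSeq, STAR, Trimmomatic, FastQC and the build mRatBN7.2 are named in the submitters' processing notes. Annotation, counting mode and strand are not given in the sources used here. Rows of a symbol were summed. Totals of 2219685 to 3508282 counts limit precision for low genes, and intervals cover counting error only.

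Groups came from the sample titles. All genes were fitted together in edgeR 4.0.16 (R 4.3.3) by its quasi-likelihood method with TMM factors, robust dispersion and filterByExpr (minimum count 10, minimum total 15), which kept 9205 symbols. The Benjamini-Hochberg threshold was 0.05 over those symbols. The SE is the absolute log2 fold change over the square root of F, and a prior count of 2 went into log2 CPM. The script was tested on simulated data. DESeq2 1.42.0 and limma 3.58.1 voom were among 20 alternatives. Fits of C3 without a filter that left out a library or used the block were added after the data were examined. Promoter windows were aligned with Biopython 1.88, and plots used matplotlib 3.10.9.

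The 9 components, the gene and marker lists, the motifs and the tests were chosen with earlier results of these data known. Named genes were the 9 components, the other complement genes that passed the filter (1 is counted but not reported here), and the 5 genes nearest to each of 4 patterns. Other names were chosen after their values were seen.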

Additional observations from a re-analysis of the deposited data

How the results depend on the processing

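Over 20 alternatives 0 of the complement components passed the adjusted threshold. C3, absent from most of those fits, passed it in 1 of 9 unfiltered or less filtered alternatives, without doxorubicin library 2 (adjusted p = 0.0256 in edgeR). The components' median log2 fold change stayed between 0.30 and 0.56. At an unadjusted p under 0.05 there were 1 to 6 components, with 1 without control library 2 and 1 without doxorubicin library 2, against 3. C1s passed that level in 20 of 20 alternatives, Serping1 in 18 and C1r in 13. For the other complement genes 2 passed the adjusted threshold with no filter and 2 with DESeq2, and 1 with sample quality weights in voom, against 0. The log2 fold change of C4a ranged from 1.27 to 1.75 and that of C4b from 1.12 to 1.67. Against 5 of all symbols past the threshold, library size only gave 0 (719 at an unadjusted p under 0.05), no filter 61, a mean CPM of at least 5 gave 1, DESeq2 74, voom 0 (740 unadjusted), voom with quality weights 14, non-robust dispersion 1 and only symbols with 1 row 1. Leaving out 1 library gave 0 to 35. The replicate number as a block gave 13 of all symbols and 0 components. Whether same-numbered rats shared anything beyond the number is not given in the sources used here. Their correlations of deviations were 0.021, -0.185 and -0.056.

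Differences near 0 changed sign. With 1 library left out, Colec12 ranged from -0.14 to 0.11, Masp1 from -0.18 to 0.20, Itgam from -0.29 to 0.25, Calr from -0.32 to 0.01 and Thbd from -0.17 to 0.35. Colec12 became 0.06 with library size only, 0.06 and 0.05 without control replicates 2 and 3 and 0.11 without doxorubicin replicate 1. Masp1 became -0.18 without doxorubicin replicate 3 and -0.01 with quality weights. Itgam became -0.05 with the block, -0.02, -0.04 and -0.29 without control replicates 1 and 3 and doxorubicin replicate 2, -0.00 with DESeq2, -0.07 with voom and -0.01 with quality weights. Calr became 0.01 without control replicate 1 and Thbd -0.17 without doxorubicin replicate 1. The cause was not tested. Low counts limit C3, at 1 to 26 per library, and Cfd, at 18 to 51.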
